A study of Homo sapiens with 18 samples.

Results

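The comparison set 500 nM JIB-04 against vehicle in OCI-Ly1, a human cell line from a diffuse large B-cell lymphoma, across all genes of the deposited count table. It used 6 of the 18 libraries of the series, the 3 labelled as given 0.01% DMSO and the 3 labelled as given 500 nM JIB-04, chosen by their labels alone. The other groups were OCI-Ly1 given 150 nM JIB-04 and a second lymphoma line, TMD8, given DMSO, 150 nM or 500 nM. They were used in the main model fits and for comparison, except TMD8 given 150 nM, which entered only an alternative fit over all 18 libraries. JIB-04 is a small-molecule inhibitor of Jumonji histone demethylases, and the series was titled as a study of heterochromatin in lymphoma. The medium was IMDM for OCI-Ly1 and RPMI for TMD8, and a difference between lines is also one between media. RNA was depleted of ribosomal RNA and read in pairs of 101 cycles on an Illumina HiSeq. The 3 libraries of a group were technical triplicates, and neither the treatment time nor the use of separate cultures is given in the sources used here. If 1 culture was sampled per group, the p-values measure only the spread of library preparation and sequencing. No allele, transgene or second agent is named for either group.

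Jumonji demethylases are oxygenases that remove methyl groups from histone lysines with the help of iron, oxygen and 2-oxoglutarate, and some of them act on lysine 9 of histone H3, the methyl mark of heterochromatin. Diffuse large B-cell lymphoma grows from mature B cells, and its cells depend on B-cell transcription factors, on B-cell receptor and NF-kB signals and on high rates of protein synthesis and division. Cells short of amino acids, of haem or of folding capacity phosphorylate the translation factor eIF2, which lowers general protein synthesis and favours translation of ATF4, the activator of a stress programme of amino acid synthesis and import genes.

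Markers fitted the labelled cell. The summed normalised level of 5 B-lineage markers was 1189 to 1232 CPM (counts scaled to the library total by trimmed mean of M-values) with DMSO and 1033 to 1070 CPM at 500 nM. The 3 germinal-centre markers summed to 638 to 665 CPM and 528 to 548 CPM. Plasma-cell markers summed to 1.47 to 2.99 CPM and 1.39 to 1.88 CPM. Markers of other cells were low in both groups, and all 3 T-cell markers together went from 6.10-6.74 CPM to 2.44-2.63 CPM, both NK-cell markers from 18.1-28.97 CPM (18.1-18.99 CPM without DMSO replicate 2, where NCAM1 was at 12.3 CPM) to 11.5-13.0 CPM and both epithelial markers from 4.88-5.95 CPM to 2.54-3.83 CPM. The 3 myeloid markers stayed at or below 1.57 CPM, with MPO at 0 in all 6 libraries, and the 2 fibroblast and 2 erythroid markers stayed at or below 0.272 CPM. The part of these markers in the results was not tested.

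Depth overlapped between the groups. Total estimated counts were 25545170, 17579732 and 25355038 with DMSO and 32651115, 24830313 and 28946353 at 500 nM, and 17225 to 17930 genes against 17953 to 18851 genes had a count above 0. The part of depth in the number of genes was not tested. DMSO replicate 2 stood apart from the other DMSO libraries. In it 30 genes lay over 4-fold above both of the other libraries of its group, against 0 to 3 genes in each of the other 8 OCI-Ly1 libraries. They included FGF23, at 2.78, 69.5 and 2.71 CPM in DMSO replicates 1 to 3, and PDGFA, at 4.97, 53.6 and 5.02 CPM. Of these 30 genes, 19 were called lower at 500 nM, and 3 of those 19 remained called lower without that library. All genes named in this paragraph beyond the marker lists were chosen after their values were seen.

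JIB-04 at 500 nM changed a large share of the transcriptome, and the sizes were lopsided. Of 15638 genes with enough counts to test, 4330 (27.7%) were called higher and 4057 (25.9%) lower, where a gene is called at a Benjamini-Hochberg adjusted p under 0.05 in edgeR's quasi-likelihood test. The median log2 fold change of all tested genes was -0.0033, with quartiles at -0.31 and 0.31. A change of at least 1 on the log2 scale was reached by 959 risen and 429 fallen genes, one of at least 2 by 317 and 31, and one of at least 3 by 135 and 3. Without DMSO replicate 2 the numbers past 2 were 367 and 27, and 18 of the 31 genes that fell by at least 2 still did so. In bulk RNA, fewer cells with a transcript and less of it per cell cannot be told apart. The lowest 500 nM library was above the highest DMSO library for 4903 genes (31.4%) and the reverse held for 4593 genes (29.4%).

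**Figure D1:**
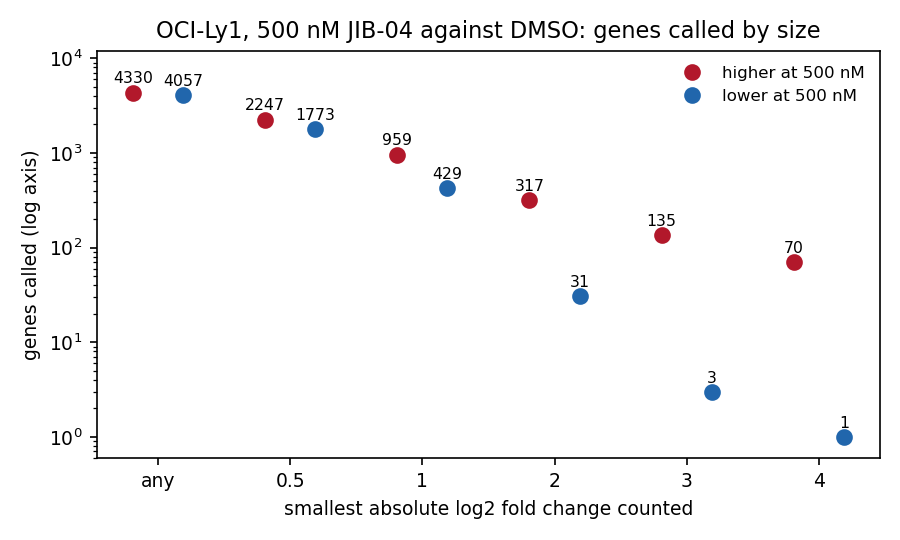
Number of OCI-Ly1 genes called at 500 nM JIB-04 against DMSO (edgeR, adjusted p under 0.05, vertical log axis) by the smallest absolute log2 fold change counted (horizontal axis), with higher genes in red and lower genes in blue. The numbers are alike when every size is counted, 4330 and 4057, and part to 317 and 31 at a size of 2.

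The shares differed by the level of the gene. Among genes with a mean of at least 100 CPM, 24% were called higher and 46% lower. They were 32.3% and 24.1% between 20 and 100 CPM, 34.6% and 24.2% between 5 and 20 CPM, 22.3% and 23.6% between 1 and 5 CPM, and 17.1% and 9.74% below 1 CPM. How the 2 directions divide also rested on the scaling, since 51.6% of the calls were higher with the main scaling, 71.9% on log2(TPM + 1) and 32.3% on that scale after each library was centred on its median. Of the 15638 tested genes, 5739 were called higher and 2240 lower on log2(TPM + 1), and 2902 and 6079 after this centring. List counts under the main scaling are to be read beside 27.7% higher and 25.9% lower, the shares of all tested genes. Under the TPM scalings they are to be read beside the numbers of calls just given. These scalings moved the median of all genes by 0.105 and -0.121 on the log2 scale. Where one of them moved a list's count of calls by over 1.5 times, to or from 5 or more, the other count stands beside it below, and centring means centring on that TPM scale.

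**Figure D2:**
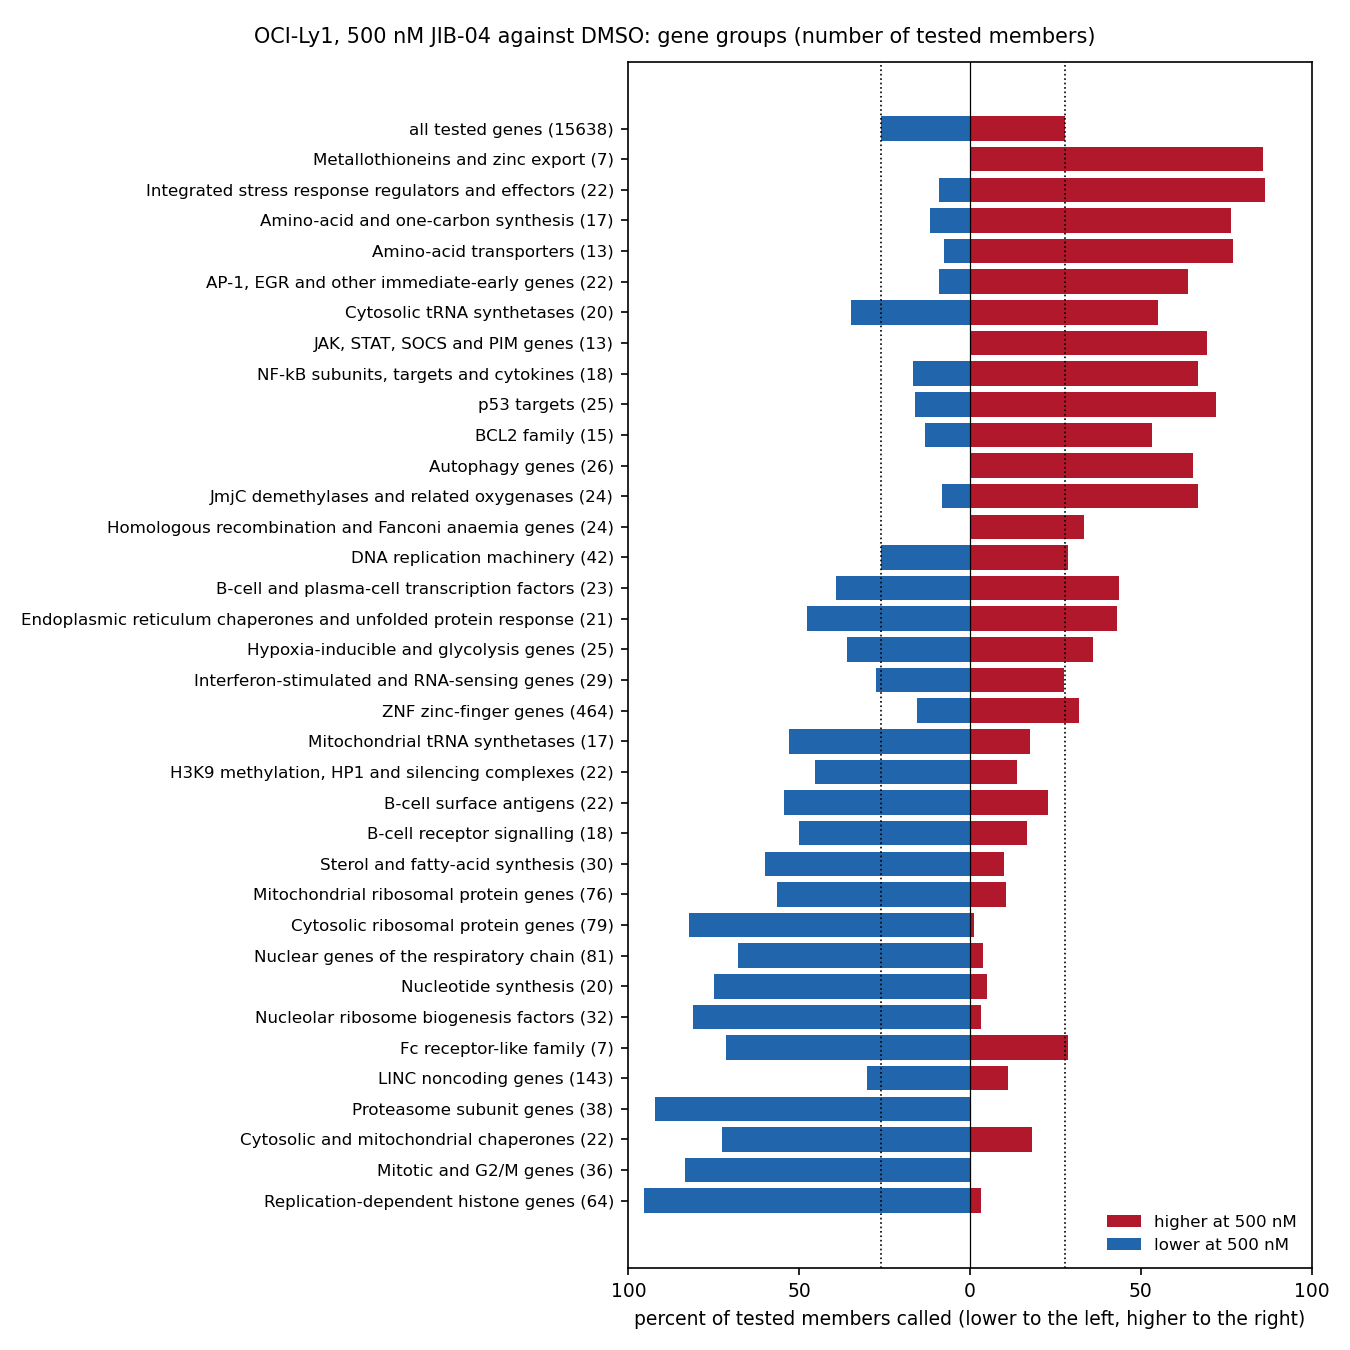
Percent of the tested members of each gene list that were called higher (red, to the right) or lower (blue, to the left) at 500 nM in OCI-Ly1, with the number of tested members in brackets and dotted lines at the shares of all tested genes, 27.7% and 25.9%. Stress-response, amino acid and metallothionein lists lie to the right, and histone, mitotic, chaperone and proteasome lists lie to the left.

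The integrated stress response list rose as a block. Of its 22 tested genes 19 were called higher and 2 lower, with a median log2 fold change of 1.42. In TMD8 the list median at 500 nM was 1.41. The change was called higher in OCI-Ly1 than in TMD8 for 10 of the 22 genes and lower for 8. Among all genes tested for a difference between the lines, 28.6% were called higher and 18.1% lower. ATF4 itself, the transcription factor of the programme, was at 523, 522 and 505 CPM with DMSO and 828, 826 and 788 CPM at 500 nM, a log2 fold change of 0.66 (SE 0.04, edgeR adjusted p = 5.1e-10). Its target and partner DDIT3, also called CHOP, went from 8.68, 9.33 and 6.42 CPM to 67.8, 61.2 and 58.9 CPM, a change of 2.96 on the log2 scale (SE 0.11, edgeR adjusted p = 1.9e-13). In both genes every 500 nM library lay above every DMSO library.

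CEBPB, a bZIP factor that dimerises with ATF4, went from 2.97, 3.40 and 3.39 CPM to 58.9, 56.4 and 51.7 CPM, a log2 fold change of 4.10 (SE 0.12). ATF3, another bZIP factor downstream of ATF4, went from 0.397, 0.176 and 0.565 CPM to 34.2, 26.3 and 24.997 CPM. Its log2 fold change of 6.13 (SE 0.22) was the largest of the list, and the groups did not overlap. CHAC1, which degrades glutathione, stood at 5.12, 4.11 and 3.63 CPM with DMSO and at 112, 108 and 97.9 CPM at 500 nM. At 150 nM, CHAC1 averaged 14.4 CPM and CEBPB 7.67 CPM, between the 2 other groups. Feedback genes rose too. TRIB3, a pseudokinase that restrains ATF4, went from 47.3, 45.8 and 38.8 CPM to 275, 262 and 243 CPM. PPP1R15A, the phosphatase subunit that removes phosphate from eIF2, went from 9.87, 10.3 and 9.85 CPM to 98.3, 93.2 and 88.6 CPM, a change of 3.23 on the log2 scale (SE 0.07).

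Genes of the kinases that phosphorylate eIF2 changed little in comparison. EIF2AK4, the sensor of uncharged tRNA, fell from 198, 196 and 194 CPM to 134, 130 and 129 CPM, a log2 fold change of -0.58 (SE 0.05). EIF2AK3, the kinase of the endoplasmic reticulum, was at 81.2, 84.2 and 94.5 CPM and then at 108, 102 and 108 CPM, a log2 fold change of 0.30. Transcript levels do not show kinase activity.

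The ATF4 binding element reads TGATGNAA, and it was searched on both strands in the 250 bases before each transcription start in RefSeq (GRCh38.p14). It was found in 3 of 22 promoters of the list (13.6%), against 3.19% of all 27305 promoters and 1.68% of the promoters of tested genes. For amino acid synthesis genes it was in 3 of 11, for cytosolic tRNA synthetases in 2 of 16 and for amino acid transporters in 0 of 12. The promoters below, of CHAC1 and ATF3 from the stress list and of ASNS from the synthesis list, are shown because these genes rose and each holds 1 match, in capitals, at positions -209, -191 and -68. They lie at chr15:40953221-40953470 (plus strand), chr1:212565157-212565406 (plus strand) and chr7:97872409-97872658 (minus strand), and in CHAC1 the match is on the opposite strand. A match is a description of the letters, not of binding.
CHAC1: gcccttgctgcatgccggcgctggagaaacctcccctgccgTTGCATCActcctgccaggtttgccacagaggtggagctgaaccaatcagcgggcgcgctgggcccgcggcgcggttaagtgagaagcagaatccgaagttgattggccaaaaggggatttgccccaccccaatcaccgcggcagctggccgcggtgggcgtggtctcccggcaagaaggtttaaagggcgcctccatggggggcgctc
ATF3: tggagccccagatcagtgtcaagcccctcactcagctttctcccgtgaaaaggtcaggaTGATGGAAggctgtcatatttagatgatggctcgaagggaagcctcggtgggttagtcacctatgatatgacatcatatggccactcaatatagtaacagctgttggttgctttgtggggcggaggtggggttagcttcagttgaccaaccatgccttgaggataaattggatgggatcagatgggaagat
ASNS: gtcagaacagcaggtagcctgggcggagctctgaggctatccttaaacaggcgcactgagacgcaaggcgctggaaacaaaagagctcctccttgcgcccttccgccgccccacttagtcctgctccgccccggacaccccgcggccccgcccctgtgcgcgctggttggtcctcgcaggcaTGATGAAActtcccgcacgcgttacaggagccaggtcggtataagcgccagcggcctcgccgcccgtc

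**Figure D3:**
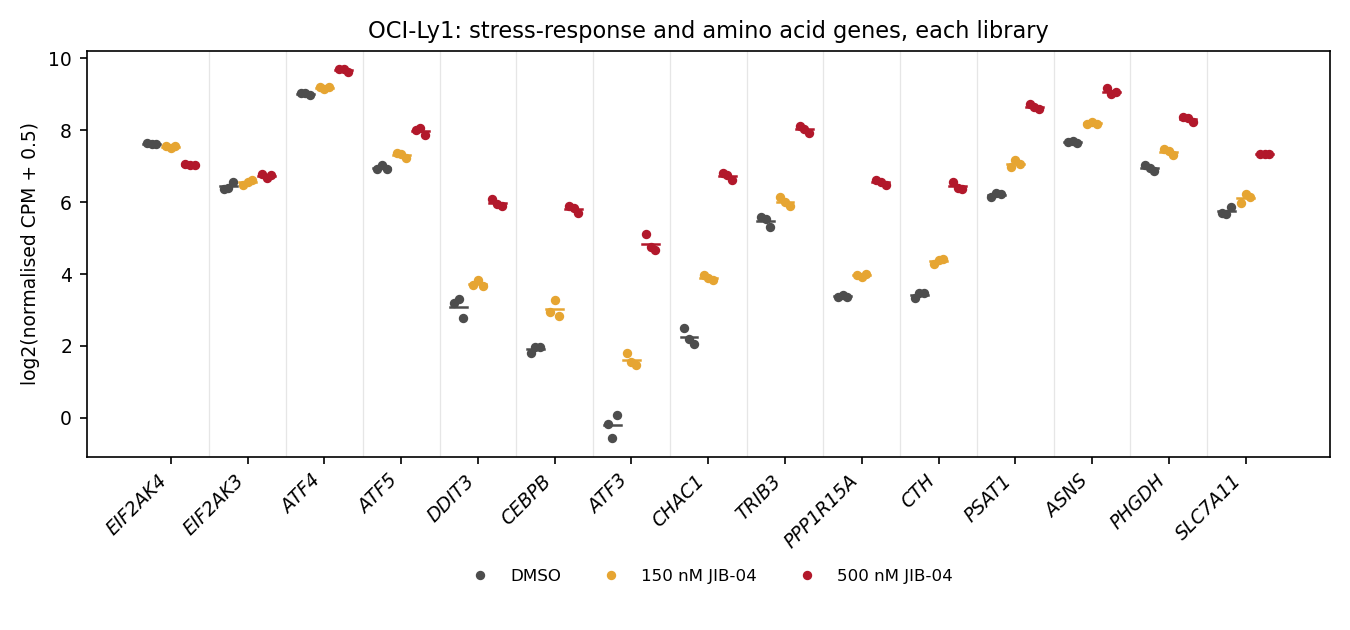
Level of 15 stress-response and amino acid genes in each of the 9 OCI-Ly1 libraries, as log2(CPM + 0.5) on the vertical axis, with points for libraries and lines for group means (DMSO grey, 150 nM orange, 500 nM red). The 500 nM points lie above the DMSO points in every gene shown except EIF2AK4, where they lie below.

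Genes that make amino acids rose together. Of 17 tested genes of amino acid and one-carbon synthesis, 13 were called higher and 2 lower, with a median log2 fold change of 1.08. CTH, which makes cysteine from cystathionine, went from 9.60, 10.5 and 10.5 CPM to 93.3, 83.1 and 82.0 CPM, a log2 fold change of 3.08 (SE 0.08, edgeR adjusted p = 3.7e-15). The serine pathway rose at each of its 3 steps. PHGDH stood at 129, 123 and 117 CPM with DMSO and at 331, 326 and 301 CPM at 500 nM. PSAT1 went from 70.5, 75.9 and 74.3 CPM to 424, 400 and 385 CPM, and PSPH changed by 1.35 on the log2 scale. In these genes the 2 groups were far apart next to the spread of their libraries.

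ASNS, asparagine synthetase, went from 204, 206 and 200 CPM to 572, 510 and 529 CPM, a log2 fold change of 1.402 (SE 0.05). PYCR1, the last enzyme of proline synthesis, rose by 2.08 on the log2 scale, while ALDH18A1, the first, fell by 0.63. MTHFD2 and SHMT2, the mitochondrial one-carbon enzymes, rose by 1.26 and 0.84, and the cytosolic MTHFD1 fell by 0.27. Some of these rises were larger than in TMD8: the change at 500 nM was called higher in OCI-Ly1 for 10 of the 17 genes, against 28.6% of all 16433 genes tested for a difference between the lines (18.1% were called lower and 46.7% either way). MTHFD2 changed by 0.04 in TMD8, a difference of 1.22 (SE 0.07, edgeR adjusted p = 4.8e-12).

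Amino acid importers followed, with 10 of 13 tested genes called higher, 1 lower and a median log2 fold change of 0.78. SLC6A9, the glycine transporter, rose by 4.09 on the log2 scale. SLC43A1, a carrier of large neutral amino acids, went from 12.6, 15.6 and 12.8 CPM to 115, 118 and 106 CPM. Its log2 fold change was 3.06 (SE 0.08) in OCI-Ly1 and -0.05 in TMD8, a difference of 3.11 (SE 0.10, edgeR adjusted p = 6.7e-17). SLC7A11, the cystine importer, went from 51.5, 50.1 and 58.1 CPM to 162, 160 and 161 CPM. Its heavy chain SLC3A2 rose by 1.35 and the glutamine importer SLC1A5 by 1.70, and SLC7A5, a second partner of SLC3A2, rose by 0.84.

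The enzymes that load tRNAs split into a risen and a fallen set. Of 20 cytosolic tRNA synthetases, 11 were called higher and 7 lower, with a median log2 fold change of 0.45, and 12 and 4 on log2(TPM + 1). WARS, for tryptophan, went from 75.3, 71.2 and 76.5 CPM to 367, 349 and 325 CPM, a log2 fold change of 2.22 (SE 0.06, edgeR adjusted p = 3.9e-15). CARS, for cysteine, went from 55.7, 57.0 and 52.3 CPM to 146, 140 and 139 CPM, TARS for threonine rose by 1.27 and GARS for glycine by 1.02. RARS, for arginine, fell from 116, 128 and 127 CPM to 85.3, 76.8 and 78.9 CPM. In 17 of the 20 the change was called higher than in TMD8 and in 0 lower, where the TMD8 median was -0.17. CARS, for example, changed by 0.03 in TMD8. The mitochondrial synthetases went the other way, with 3 of 17 called higher and 9 lower at a median of -0.14, although 5 were called lower on log2(TPM + 1).

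The list of the unfolded protein response and its chaperones moved in both directions, with 9 of 21 tested genes called higher and 10 lower. ERN1, the sensor that splices XBP1 messenger RNA, went from 3.21, 3.05 and 2.99 CPM to 31.6, 28.3 and 26.6 CPM, a log2 fold change of 3.22 (SE 0.12, edgeR adjusted p = 1.6e-13). XBP1 went from 7.65, 6.46 and 6.54 CPM to 25.5, 20.8 and 21.0 CPM. SEL1L and HERPUD1, which take misfolded proteins out of the endoplasmic reticulum, rose by 1.45 and 1.21. HSPA5, the chaperone also called BiP, went from 195, 196 and 167 CPM to 119, 114 and 112 CPM, a log2 fold change of -0.70 (SE 0.08). CALR fell by 0.95, HSP90B1 by 0.71 and MANF by 1.02, and in HSPA5 every 500 nM library was below every DMSO library.

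Cytosolic and mitochondrial chaperones fell as a list, with 16 of 22 tested genes called lower, 4 higher and a median log2 fold change of -0.52. HSPA8, the constitutive Hsc70, went from 2673, 2786 and 2766 CPM to 1192, 1140 and 1163 CPM, a log2 fold change of -1.23 (SE 0.04, edgeR adjusted p = 1.4e-13). HSP90AB1 went from 2330, 2383 and 2225 CPM to 1156, 1128 and 1134 CPM and HSP90AA1 from 1129, 1218 and 1213 CPM to 673, 648 and 655 CPM. Each of these genes had groups that lay far apart. The heat-inducible HSPA1B was at 123, 130 and 121 CPM and then at 129, 124 and 116 CPM, with overlapping groups and a log2 fold change of -0.02, whereas in TMD8 it changed by 2.75, a difference of -2.77 (SE 0.07, edgeR adjusted p = 2.0e-18). HSPA1A, a near-identical copy of HSPA1B whose reads may be shared with it, was at 4.01, 9.55 and 3.85 CPM and then at 4.304, 2.91 and 2.49 CPM. Its log2 fold change of -0.80 became -0.27 (edgeR adjusted p = 0.319) without DMSO replicate 2, and the call was also lost without 500 nM replicate 2 or 3. HSPA6 went from 0.159, 0.176 and 0.0807 CPM to 2.08, 1.43 and 1.24 CPM.

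The heat-shock element, searched as GAANNTTC on both strands, was in 7 of 20 promoters of the list (35.0%), in 5.85% of all promoters and in 4.302% of those of tested genes. The HSPA8 promoter is shown because this abundant gene fell while 2 matches, at -230 and -50, stand in it in capitals. It lies at chr11:123062137-123062386 (GRCh38.p14, RefSeq, minus strand).
HSPA8: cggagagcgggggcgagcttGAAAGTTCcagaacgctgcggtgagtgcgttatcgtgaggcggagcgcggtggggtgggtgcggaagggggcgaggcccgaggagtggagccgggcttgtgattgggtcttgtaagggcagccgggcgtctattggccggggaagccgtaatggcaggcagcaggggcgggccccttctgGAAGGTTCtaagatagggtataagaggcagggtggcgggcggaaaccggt

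Metallothioneins, small proteins that bind zinc and copper, came up from low levels. Of 7 tested genes of metal handling 6 were called higher and 0 lower. MT2A went from 2.02, 1.76 and 0.646 CPM to 12.8, 12.2 and 15.4 CPM, a log2 fold change of 3.21 (SE 0.24, edgeR adjusted p = 5.5e-09). MT1X went from 2.06, 1.88 and 2.22 CPM to 15.7, 10.7 and 12.3 CPM, and MT1E, at 0 in all DMSO libraries, reached 1.253, 1.28 and 1.71 CPM. SLC30A1, the zinc exporter of the plasma membrane, went from 2.66, 2.23 and 1.45 CPM to 15.2, 16.8 and 15.0 CPM. The groups of these 4 genes did not overlap, and at 150 nM MT2A averaged 1.11 CPM. Metallothionein genes are near-identical copies, so the split of reads among them is uncertain.

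At 500 nM, the iron, antioxidant, hypoxia and aryl hydrocarbon receptor lists each held genes called in both directions. Among all tested genes 27.7% were called higher and 25.9% lower, so calls in both directions alone do not set a list apart. Iron genes divided 4 higher and 4 lower of 12 (33.3% each). TFRC, which imports iron, went from 525, 557 and 536 CPM to 804, 767 and 761 CPM, and FTH1, the heavy chain of the iron store ferritin, from 124, 127 and 136 CPM to 246, 225 and 215 CPM. NRF2 antioxidant genes divided 3 and 7 of 15, and 5 and 3 on log2(TPM + 1). NQO1, a standard NRF2 target, changed by 0.07 on the log2 scale, which did not pass the test, HMOX1 rose by 0.46, and the pentose phosphate enzymes TKT and TALDO1 fell by 0.70 and 0.48. Hypoxia and glycolysis genes divided 9 and 9 of 25 (36.0% each), and 5 and 9 after centring. VEGFA, the vascular growth factor, went from 4.64, 6.75 and 7.99 CPM to 51.5, 50.5 and 42.0 CPM, a log2 fold change of 2.90 (SE 0.14). The glycolytic enzymes LDHA and PGK1 fell by 1.04 and 0.63 and the regulator PFKFB4 by 1.41. CYP1A1, the monooxygenase induced through the aryl hydrocarbon receptor, went from 44.5, 36.8 and 35.6 CPM to 8.70, 8.02 and 8.99 CPM, a log2 fold change of -2.18 (SE 0.10). AHR itself was at 30.7, 30.5 and 33.2 CPM and then at 37.9, 37.4 and 34.7 CPM, a change of 0.22 whose call was lost when DMSO replicate 1 or 2 or 500 nM replicate 1 or 2 was left out (without DMSO replicate 2, 0.19 with an edgeR adjusted p = 0.097).

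Genes of mitosis fell. Of 36 tested G2 and mitotic genes 30 were called lower and 0 higher, with a median log2 fold change of -0.55. PLK1, the kinase that drives mitotic entry, went from 99.2, 110 and 97.8 CPM to 35.0, 38.7 and 37.6 CPM, a log2 fold change of -1.46 (SE 0.07, edgeR adjusted p = 4.0e-12). CCNB1, the mitotic cyclin, went from 299, 287 and 296 CPM to 119, 121 and 126 CPM, and AURKA, the spindle-pole kinase, from 130, 146 and 139 CPM to 69.4, 64.2 and 65.4 CPM. The 2 groups of each lay apart. KIF20A, CDC20 and CENPE fell by 1.246, 1.16 and 1.04, CDK1 and TOP2A by 0.50 and 0.58, and FOXM1, the activator of many of these genes, changed by -0.02 without passing the test. All 36 changes were called less negative than in TMD8, where the median was -1.36. For PLK1 the TMD8 value was -2.96, a difference of 1.498 (SE 0.10, edgeR adjusted p = 1.5e-11). At 150 nM none of the 36 was called in OCI-Ly1 against 0.889% of all genes.

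The cell-cycle homology region, TTTGAA on either strand, was in 17 of 30 promoters of these genes (56.7%), in 13.6% of all and in 9.11% of those of tested genes. CCAAT, searched on both strands, was in 25 of the 30 (83.3%), in 33.0% of all and in 35.2% of those of tested genes. The promoters of PLK1 and CCNB2 are shown because both hold the region, in capitals, at -29. CCNB2 went from 146, 159 and 155 CPM to 116, 120 and 109 CPM, a smaller fall than PLK1. The windows are chr16:23678639-23678888 and chr15:59104896-59105145 (GRCh38.p14, RefSeq, plus strand).
PLK1: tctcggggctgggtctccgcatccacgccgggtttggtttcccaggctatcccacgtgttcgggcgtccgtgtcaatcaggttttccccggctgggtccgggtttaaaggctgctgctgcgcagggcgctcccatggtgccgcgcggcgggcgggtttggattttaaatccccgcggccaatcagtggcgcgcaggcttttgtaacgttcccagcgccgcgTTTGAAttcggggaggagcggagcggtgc
CCNB2: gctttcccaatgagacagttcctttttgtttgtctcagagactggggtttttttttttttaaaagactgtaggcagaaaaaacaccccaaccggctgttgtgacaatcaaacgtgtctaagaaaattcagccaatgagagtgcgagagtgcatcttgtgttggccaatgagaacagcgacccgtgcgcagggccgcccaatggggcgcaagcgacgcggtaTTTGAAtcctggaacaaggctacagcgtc

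The replication machinery had no direction that held across scalings. Of 42 tested genes 12 were called higher and 11 lower, against 24 and 5 on log2(TPM + 1), 21 and 7 when scaled by library size only and 6 and 14 after centring, and 10 and 7 without 500 nM replicate 2. PCNA, the sliding clamp, was at 506, 558 and 578 CPM and then at 604, 585 and 552 CPM, with overlapping groups and a log2 fold change of 0.08 that did not pass the test. It passed on log2(TPM + 1) (0.22, limma adjusted p = 0.0286) and when scaled by library size only (0.17, edgeR adjusted p = 0.0076). CDC45, part of the replicative helicase, rose by 0.42, and RFC3, of the clamp loader, fell by 0.55. Of 24 homologous recombination and Fanconi anaemia genes 8 were called higher and 0 lower, and 15 and 0 on log2(TPM + 1). EXO1, the resection nuclease, went from 130, 128 and 132 CPM to 247, 234 and 232 CPM, and BRCA1 rose by 0.37. The cell-cycle inhibitors CDKN1B and CDKN2B, brakes on G1 kinases, rose by 0.40 and 1.24, E2F1 rose by 0.29 and E2F5 fell by 0.59.

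Replication-dependent histone genes, whose transcripts end without a poly(A) tail and are kept by ribosomal depletion, had the lowest median of the lists examined. Of 64 tested genes 61 were called lower and 2 higher, with a median log2 fold change of -1.34, and 52 fell by at least 1. Together they took 33550, 32489 and 30253 CPM with DMSO and 12106, 12555 and 11695 CPM at 500 nM. HIST1H4I, a histone H4 gene, went from 177, 173 and 181 CPM to 42.4, 44.1 and 37.3 CPM, a log2 fold change of -2.10 (SE 0.07, edgeR adjusted p = 1.2e-13). HIST1H1B, the linker histone H1.5, went from 2556, 2557 and 2319 CPM to 606, 670 and 627 CPM. The 2 risen genes were HIST1H1T, the testis linker histone, which moved from 0.0397, 0.0587 and 0.121 CPM to 0.715, 0.968 and 0.856 CPM, and HIST2H2BC, which changed by 0.45. Many histone genes are near-identical copies, so counts of single genes are uncertain.

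CCAAT was found in 55 of 65 promoters of this list (84.6%). The 2 windows below are shown as an H1 and an H2B gene that fell, with CCAAT in capitals on either strand, 2 matches in HIST1H1B and 5 in HIST1H2BM. HIST1H2BM went from 541, 506 and 540 CPM to 138, 136 and 125 CPM. RefSeq (GRCh38.p14) places them at chr6:27867589-27867838 (minus strand) and chr6:27814772-27815021 (plus strand).
HIST1H1B: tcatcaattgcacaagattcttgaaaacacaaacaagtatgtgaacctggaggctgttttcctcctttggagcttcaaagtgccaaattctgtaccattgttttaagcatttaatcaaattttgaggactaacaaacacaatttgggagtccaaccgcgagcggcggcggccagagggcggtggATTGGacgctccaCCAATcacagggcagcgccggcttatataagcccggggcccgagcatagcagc
HIST1H2BM: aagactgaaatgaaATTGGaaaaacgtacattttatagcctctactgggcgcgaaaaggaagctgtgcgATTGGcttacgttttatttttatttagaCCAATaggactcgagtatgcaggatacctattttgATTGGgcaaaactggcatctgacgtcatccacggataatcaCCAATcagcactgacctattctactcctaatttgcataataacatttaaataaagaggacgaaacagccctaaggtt

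Targets of p53 rose more often than they fell. Of 25 tested genes 18 were called higher and 4 lower, with a median log2 fold change of 0.32. CDKN1A, the p21 inhibitor of cyclin-dependent kinases, went from 17.6, 16.2 and 17.4 CPM to 144, 141 and 139 CPM, a log2 fold change of 3.05 (SE 0.07, edgeR adjusted p = 5.3e-16), and averaged 38.1 CPM at 150 nM. FAS, a death receptor, went from 0.753, 0.998 and 1.09 CPM to 7.66, 5.11 and 6.46 CPM. MDM2, the ligase that degrades p53, was at 510, 488 and 503 CPM and then at 544, 568 and 577 CPM, a change of 0.17 whose call was lost without DMSO replicate 2 (0.15, edgeR adjusted p = 0.0601) and without 500 nM replicate 2 or 3. RRM2B, a ribonucleotide reductase subunit, fell by 0.60 in OCI-Ly1. The TMD8 median of the list was 1.09, and the change was called lower in OCI-Ly1 for 14 of the 25 genes, against 18.1% of all genes.

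In the BCL2 family, which sets the threshold of mitochondrial cell death, 8 of 15 tested genes were called higher and 2 lower. BBC3, a BH3-only killer gene also called PUMA, went from 5.47, 7.28 and 5.85 CPM to 33.0, 40.001 and 36.4 CPM, a log2 fold change of 2.57 (SE 0.12). PMAIP1, another, called NOXA, went from 88.4, 104 and 103 CPM to 192, 192 and 177 CPM, BCL2L11 rose by 0.42 and HRK by 0.90, and BIK fell by 0.57. Among the survival genes MCL1 was at 248, 279 and 265 CPM and then at 256, 258 and 250 CPM, with overlapping groups. Autophagy genes were called higher in 17 of 26 cases and lower in 0, at a median of 0.30. SQSTM1, the p62 cargo receptor, went from 116, 118 and 102 CPM to 200, 183 and 184 CPM, and MAP1LC3B, the LC3 protein of the autophagosome, from 55.9, 58.2 and 49.4 CPM to 117, 107 and 97.7 CPM. OPTN, a receptor for damaged mitochondria, rose by 1.42 and WIPI1 by 1.06.

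The class of enzymes that JIB-04 inhibits changed in transcript level as well, with 16 of 24 JmjC genes called higher and 2 lower at a median of 0.22, 17 and 0 on log2(TPM + 1) and 9 and 4 after centring. PHF2, which removes methyl from lysine 9 of histone H3, went from 24.5, 27.2 and 22.7 CPM to 42.9, 43.8 and 39.2 CPM, a log2 fold change of 0.76 (SE 0.08). KDM3A, another lysine 9 demethylase, went from 49.96, 53.9 and 59.8 CPM to 75.3, 66.7 and 73.6 CPM. On the side that writes and reads this mark, 10 of 22 genes (45.5%) were called lower and 3 (13.6%) higher at a median of -0.14. On log2(TPM + 1) 6 were lower, at a median of -0.005. The shares lower and higher were 25.9% and 27.7% among all tested genes. They were 46% and 24% among genes with a mean of at least 100 CPM, and the part of transcript level in the list was not tested. CBX5, the heterochromatin protein HP1 alpha, went from 430, 460 and 452 CPM to 348, 352 and 369 CPM, and LBR, which holds heterochromatin at the nuclear envelope, from 290, 312 and 318 CPM to 224, 221 and 231 CPM. CBX3 fell by 0.36, and FAM208A, of the HUSH complex, fell by 0.37. The methyltransferases SUV39H1 and SETDB1 changed by -0.14 each and did not pass the test. SUV39H1 passed after centring (-0.23, limma adjusted p = 0.0228), and SETDB1 in a fit of only the 6 compared libraries (-0.13, edgeR adjusted p = 0.0474).

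Other chromatin lists were divided. Of 14 DNA methylation genes 5 were called higher and 2 lower, against 8 and 1 on log2(TPM + 1), 3 and 3 after centring, and 3 and 2 without 500 nM replicate 3. DNMT3A, a de novo methyltransferase, went from 11.1, 12.03 and 13.0 CPM to 20.8, 23.5 and 21.3 CPM, TDG, which excises oxidised methylcytosine, fell by 0.69, and the maintenance enzyme DNMT1 changed by -0.01 with overlapping groups. Of 21 Polycomb genes 7 were called higher and 5 lower, and 11 and 3 on log2(TPM + 1). BMI1 went from 19.0, 29.1 and 28.5 CPM to 54.1, 53.7 and 46.6 CPM, and EED and CBX6 fell by 0.58 and 0.70. BRD3, an acetyl-lysine reader, rose by 0.74. ZNF genes were called higher in 148 of 464 cases and lower in 72 at a median of 0.09. On log2(TPM + 1) the counts were 199 and 26, and the median was 0.19, against 0.10 for all tested genes. After centring they were 83 and 124, and the median was -0.04, against -0.12 for all tested genes.

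Germline and cancer-testis genes, many of them silent in somatic cells under DNA methylation and lysine 9 methylation, did not rise as a list. Of 30 listed genes 14 passed the filter on low counts, and 3 of those were called higher and 5 lower, or 4 and 3 on log2(TPM + 1). MAGEA12 went from 9.64, 11.9 and 10.5 CPM to 20.8, 22.8 and 20.5 CPM, and PRAME fell from 50.4, 52.6 and 43.7 CPM to 30.8, 34.5 and 33.4 CPM. Interferon-stimulated genes, which silenced repeats can induce through RNA sensors when they are transcribed, were called higher in 8 of 29 cases and lower in 8, and in 10 and 4 on log2(TPM + 1). The main shares, 27.6% in each direction, were near those of all tested genes, 27.7% higher and 25.9% lower. Single members moved either way. IRF7 went from 6.03, 4.99 and 4.52 CPM to 21.1, 18.3 and 20.02 CPM, while IFI44 went from 4.92, 5.99 and 5.85 CPM to 1.16, 1.94 and 1.252 CPM. ISG15 changed by 0.17, which did not pass the test. It passed on log2(TPM + 1) (0.31, limma adjusted p = 0.0048) and in a fit of only the 6 compared libraries (0.18, edgeR adjusted p = 0.035).

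A small set of genes went from almost nothing to clear expression. At most 3 counts in each DMSO library and a mean of at least 1 CPM at 500 nM were found for 32 genes, and the reverse for 0 genes. The 4 copies DUX4L2, DUX4L3, DUX4L5 and DUX4L6 held identical values, so the 32 genes gave 29 distinct profiles. In 25 of the 32 every 500 nM library was at or above 1 CPM. P2RX1, an ATP-gated ion channel, was at 0.0397, 0.117 and 0.121 CPM with DMSO, averaged 0.644 CPM at 150 nM and reached 12.1, 12.4 and 10.0 CPM at 500 nM. KLHDC7B went from 0.0793, 0 and 0.0404 CPM to 5.54, 6.002 and 4.78 CPM. ALPK2, an atypical kinase, went from 0, 0.0587 and 0 CPM to 5.21, 3.68 and 4.54 CPM. Of the 32 genes 11 had at least 1 CPM in TMD8 with DMSO. Replicates 1 and 3 at 500 nM were deeper than every DMSO library, and what that adds to this count was not tested.

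Some genes just above that limit rose by more, and were chosen after their values were seen. ESRP1, an epithelial splicing regulator, went from 0.278, 0.176 and 0 CPM to 51.3, 46.6 and 44.96 CPM, with a mean of 3.64 CPM at 150 nM. The summed epithelial markers fell as given above, a fall that was that of EPCAM, since KRT19 stayed at or below 0.159 CPM. FERMT2, an integrin activator, went from 0.119, 0.117 and 0.242 CPM to 14.9, 12.5 and 12.1 CPM. DUX2, listed under the double homeobox family of a repeat array that heterochromatin silences, went from 0.674, 0.176 and 0.444 CPM to 45.2, 34.9 and 36.0 CPM, a log2 fold change of 6.38 (SE 0.20, edgeR adjusted p = 2.8e-14), and averaged 5.40 CPM at 150 nM. DUX4L2 and the copies DUX4L3, DUX4L5 and DUX4L6 carried the same values, 0 in all DMSO libraries and 1.71, 2.05 and 2.28 CPM at 500 nM, and DUX4L4 was at 2.69, 5.61 and 0 CPM, so reads of these near-identical copies could not be assigned with certainty. Of 22 listed target genes of the DUX4 factor, 10 were at 0 in all 6 libraries, 16 had at most 3 counts in each 500 nM library, and none was above 1.74 CPM at 500 nM. Only 3 of the 22 had enough counts to test, and 0 of these were called higher (edgeR).

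**Figure D4:**
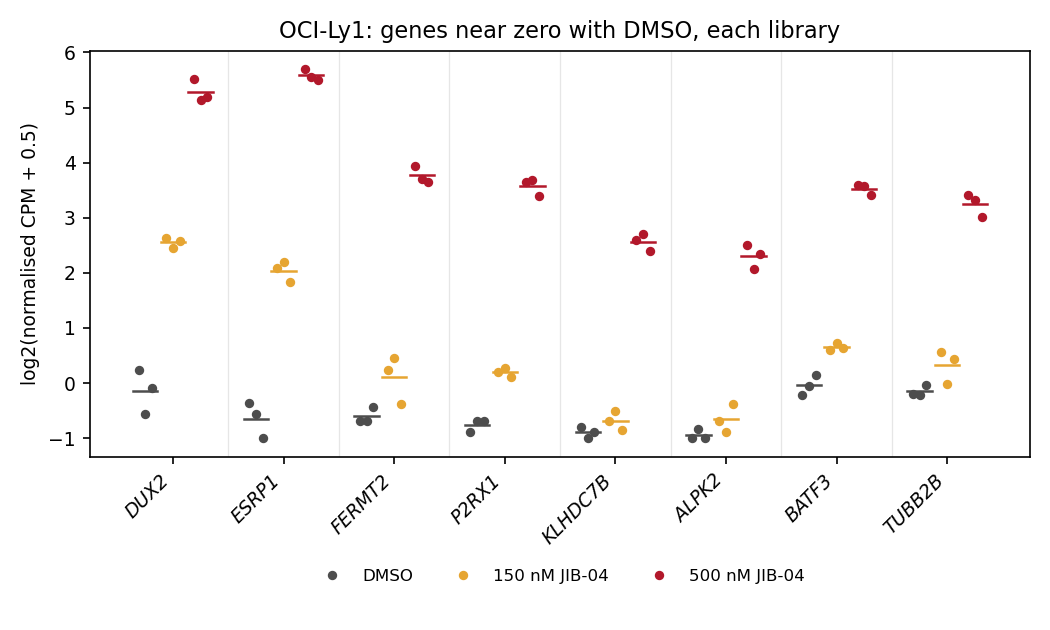
Level of 8 genes that were near 0 with DMSO, in each OCI-Ly1 library, as log2(CPM + 0.5), with points for libraries and lines for group means (DMSO grey, 150 nM orange, 500 nM red). The 500 nM points of every gene shown stand above those of both other groups, and the 150 nM points of DUX2 and ESRP1 lie between them.

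B-cell identity changed in parts. Of 23 B-cell and plasma-cell transcription factors 10 were called higher and 9 lower, and 11 and 5 on log2(TPM + 1). IRF4, which drives B cells towards plasma cells, went from 244, 230 and 217 CPM to 455, 446 and 422 CPM, a log2 fold change of 0.94 (SE 0.05, edgeR adjusted p = 1.1e-10). IRF4 fell in TMD8, by 0.69, and the difference between the lines was 1.62 (SE 0.08, edgeR adjusted p = 1.1e-13). IKZF1 went the other way in OCI-Ly1, from 420, 413 and 409 CPM to 226, 254 and 239 CPM, and IKZF3 and POU2F2 fell by 0.55 and 0.65. BACH2, EBF1 and MEF2B rose by 0.67, 0.59 and 0.81. The germinal-centre repressor BCL6 was at 221, 209 and 215 CPM and then at 232, 232 and 234 CPM, a change of 0.11 that did not pass the test. BCL6 passed on log2(TPM + 1) (0.24, limma adjusted p = 0.0087) and in a fit of only the 6 compared libraries (0.12, edgeR adjusted p = 0.036). PRDM1, the plasma-cell regulator, changed by -0.49 with overlapping groups and did not pass either. It passed without DMSO replicate 1 (-0.73, edgeR adjusted p = 0.031) and after centring (-0.35, limma adjusted p = 0.011).

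Surface antigens of B cells were called lower in 12 of 22 cases and higher in 5, with a median log2 fold change of -0.27. MS4A1, or CD20, went from 457, 496 and 513 CPM to 361, 366 and 379 CPM and CD79B, a chain of the B-cell receptor, from 401, 381 and 339 CPM to 287, 297 and 292 CPM. CCR7, the receptor that guides cells to lymph nodes, went from 0.991, 0.528 and 0.767 CPM to 6.67, 5.89 and 4.97 CPM, TNFRSF17, the BCMA receptor, from 46.9, 54.3 and 41.2 CPM to 131, 124 and 129 CPM, and CXCR4 rose by 0.79. Of 18 genes of B-cell receptor signalling 9 were called lower and 3 higher, at a median of -0.09, and 7 and 5 on log2(TPM + 1), where the median was 0.04. BTK went from 134, 146 and 145 CPM to 91.7, 89.4 and 88.2 CPM, and SYK, the kinase above it, from 421, 424 and 425 CPM to 324, 341 and 339 CPM. PLCG2 and VAV1 fell by 0.39 and 0.59, and RASGRP3, which activates RAS, rose by 0.91.

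Fc receptor-like genes were called lower in 5 of 7 cases and higher in 2. FCRL2 went from 34.5, 35.0 and 34.7 CPM to 6.44, 6.70 and 7.25 CPM, the largest fall of the family, with a log2 fold change of -2.35 (SE 0.08) in OCI-Ly1 and -0.01 in TMD8 (edgeR adjusted p of the difference = 2.9e-15). FCRL3 went from 110, 107 and 109 CPM to 54.6, 57.3 and 61.2 CPM, while FCRL5 rose by 0.49. Genes of antigen presentation were divided, with 4 higher and 3 lower of 10 class II genes and 5 and 4 of 14 class I genes, the latter 7 and 1 on log2(TPM + 1) and 2 and 6 after centring. Class II messages such as HLA-DRA were near 0 in OCI-Ly1, at 0.238, 0.235 and 0.121 CPM and then at 1.16, 0.774 and 1.55 CPM. HLA-DMA, which loads peptides, went from 10.1, 10.4 and 8.998 CPM to 3.605, 4.49 and 4.35 CPM. HLA-B rose by 0.54, and PSMB8, an immunoproteasome subunit, fell by 0.72.

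NF-kB genes were called higher more often than lower. Of 18 tested genes 12 were called higher and 3 lower, with a median log2 fold change of 0.38 and a TMD8 median of 0.02. The number higher was 8 without DMSO replicate 3, without 500 nM replicate 1 and after centring, with 3 lower in each. NFKBIA, the inhibitor that NF-kB itself induces, went from 59.9, 58.0 and 55.6 CPM to 142, 136 and 134 CPM, a log2 fold change of 1.246 (SE 0.06, edgeR adjusted p = 3.9e-12). TNFAIP3, the A20 brake on the pathway, went from 12.6, 12.8 and 11.8 CPM to 36.3, 34.7 and 32.4 CPM, and ICAM1, an adhesion molecule, from 1.68, 1.247 and 1.54 CPM to 18.5, 18.3 and 18.4 CPM. CD83 and RELB rose by 1.04 and 0.64, and REL fell by 0.85. The difference from TMD8 was 4.01 (SE 0.12) for ICAM1, 1.74 (SE 0.08) for NFKBIA and 1.499 (SE 0.09) for TNFAIP3 on the log2 scale, each called by edgeR. The starting levels differed widely, since ICAM1 averaged 1.49 CPM with DMSO in OCI-Ly1 and 92.2 CPM in TMD8, and TNFAIP3 12.4 CPM and 186 CPM.

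**Figure D5:**
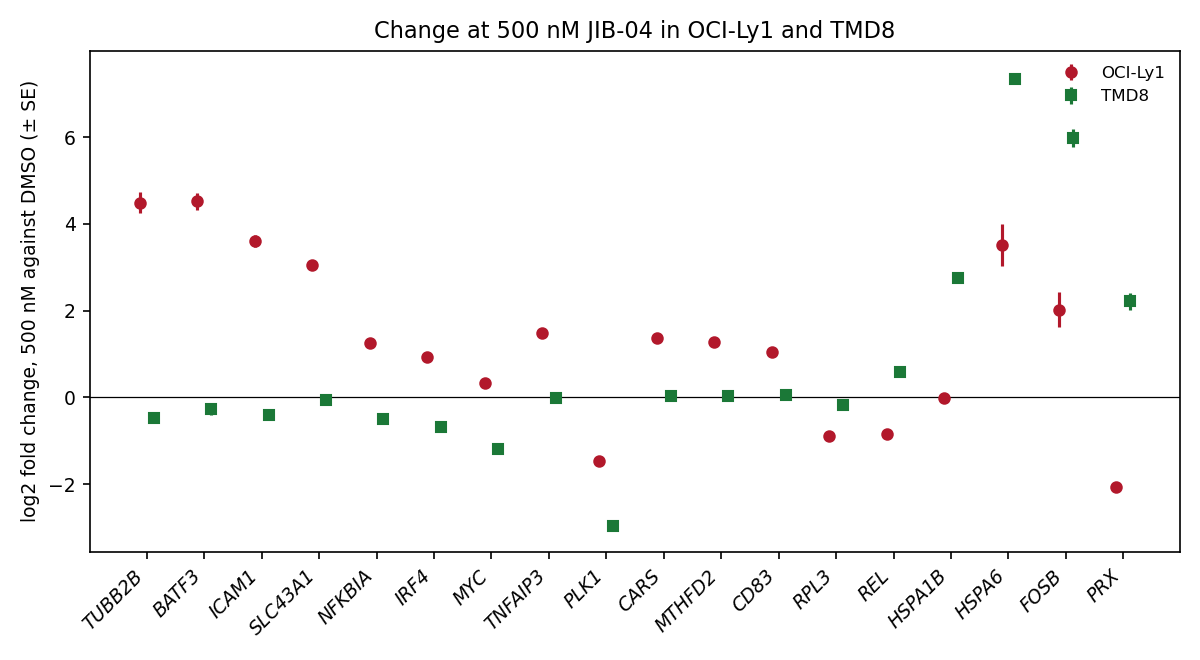
Log2 fold change at 500 nM JIB-04 against DMSO in OCI-Ly1 (red circles) and TMD8 (green squares), with bars for the SE, for 18 genes ordered by the difference between the lines. TUBB2B, BATF3 and ICAM1 rose in OCI-Ly1 and lie near or below 0 in TMD8, and PRX, FOSB and HSPA6 lie higher in TMD8.

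JAK and STAT genes were called higher in 9 of 13 cases and lower in 0, with a median log2 fold change of 0.48 in OCI-Ly1 and -0.03 in TMD8. JAK3 went from 7.66, 8.11 and 5.42 CPM to 16.7, 16.9 and 18.4 CPM. PIM2, a survival kinase under STAT control, went from 86.4, 93.1 and 85.1 CPM to 197, 197 and 187 CPM, and SOCS1, the feedback inhibitor, from 10.6, 6.92 and 7.59 CPM to 17.97, 18.5 and 15.0 CPM. JAK1, JAK2 and PIM1 rose by 0.41, 0.61 and 0.51. Immediate-early genes, which cells switch on within a short time of a signal, were called higher in 14 of 22 cases and lower in 2 at a median of 1.32, which was 0.51 on log2(TPM + 1) and 0.28 after centring, where 12 were called higher and 5 lower. JUN went from 2.85, 3.11 and 2.58 CPM to 20.4, 23.2 and 18.7 CPM, a log2 fold change of 2.87 (SE 0.13), and IER5 from 15.5, 17.1 and 15.8 CPM to 62.7, 61.0 and 53.3 CPM. EGR1 stayed low, at 1.55, 0.822 and 0.767 CPM and then at 2.62, 2.44 and 1.84 CPM. FOSB rose by 2.02 in OCI-Ly1 and by 5.98 in TMD8.

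Genes of the growth machinery were called lower in many cases, by small steps. The share called lower was 25.9% among all tested genes and 46% among those with a mean of at least 100 CPM. The part of transcript level in the lists that follow was not tested. Nucleolar ribosome biogenesis factors were called lower in 26 of 32 cases and higher in 1, with a median log2 fold change of -0.32 that ran from -0.40 to -0.18 over the alternatives, and 17 were called lower on log2(TPM + 1). NCL, the nucleolar protein nucleolin, went from 1806, 1897 and 1948 CPM to 1221, 1185 and 1112 CPM, and NPM1 from 1831, 1976 and 2108 CPM to 1321, 1255 and 1221 CPM. POLR1B, a core subunit of RNA polymerase I, fell by 0.55. Cytosolic ribosomal protein genes were called lower in 65 of 79 cases and higher in 1 at a median of -0.24, and in 32 and 3 on log2(TPM + 1). RPL3 went from 1047, 1010 and 926 CPM to 524, 530 and 544 CPM, a log2 fold change of -0.90 (SE 0.06), against -0.17 in TMD8 (edgeR adjusted p of the difference = 2.8e-08).

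Mitochondrial ribosomal proteins were called lower in 43 of 76 cases (56.6%) and higher in 8, and in 24 and 16 on log2(TPM + 1). Their median log2 fold change was -0.20, and -0.06 on log2(TPM + 1). MRPS28 went from 85.9, 104 and 88.9 CPM to 56.1, 50.8 and 52.9 CPM. Nuclear genes of the respiratory chain were called lower in 55 of 81 cases and higher in 3, and in 37 and 7 on that scale, with ATP5A1 of ATP synthase at 1042, 1072 and 999 CPM and then at 614, 600 and 597 CPM. Proteasome subunits were called lower in 35 of 38 cases and higher in 0 at a median of -0.40, with a range of -0.49 to -0.27 over the alternatives. PSMD1, of the lid and base particle, went from 407, 406 and 422 CPM to 236, 235 and 237 CPM, and PSMA3, of the core, from 138, 143 and 141 CPM to 83.9, 84.4 and 86.3 CPM.

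Nucleotide synthesis genes were called lower in 15 of 20 cases and higher in 1, at a median of -0.28. APRT, which salvages adenine, went from 117, 118 and 103 CPM to 63.6, 67.2 and 61.5 CPM, ATIC and IMPDH2 of purine synthesis fell by 0.68 and 0.56, and CAD, which starts pyrimidine synthesis, changed by -0.07 without passing the test. Of 30 sterol and fatty acid genes 18 were called lower and 3 higher. HMGCS1, an early enzyme of the pathway, went from 236, 246 and 239 CPM to 153, 137 and 141 CPM, a log2 fold change of -0.74. The regulator genes SREBF1 and SREBF2 rose by 0.66 and 0.28. MYC, a transcription factor that drives growth genes, went from 332, 313 and 302 CPM to 399, 408 and 390 CPM, a log2 fold change of 0.34 (SE 0.05), while in TMD8 it changed by -1.19. The MYC antagonists MXD1 and MXI1 rose by 0.98 and 0.67.

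Genes often used as references for other assays moved too. ACTB went from 3349, 3358 and 3249 CPM to 2110, 2178 and 2116 CPM, and GAPDH from 3693, 3582 and 3633 CPM to 2641, 2609 and 2575 CPM, log2 fold changes of -0.64 and -0.48. PPIA fell by 0.55. TBP was at 23.5, 21.5 and 22.2 CPM and then at 24.9, 25.4 and 25.2 CPM, a change of 0.17 that did not pass the test. It passed on log2(TPM + 1) (0.29, limma adjusted p = 0.0067) and when scaled by library size only (0.25, edgeR adjusted p = 0.00815).

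LINC and antisense genes were called higher less often than all tested genes, of which 27.7% were called higher and 25.9% lower. LINC genes were called lower in 43 of 143 cases (30.1%) and higher in 16 (11.2%), with a median log2 fold change of -0.39. Antisense genes were called lower in 84 of 275 cases (30.5%) and higher in 35 (12.7%), at a median of -0.27. On log2(TPM + 1) the LINC counts were 30 lower and 22 higher and the antisense counts 65 and 46, with medians of -0.11 and -0.06, and after centring they were 81 and 11, and 133 and 29. In TMD8 the medians were 0.28 and 0.23. The largest rise among the LINC genes was LINC00273, from 21.6, 27.3 and 19.1 CPM to 216, 189 and 143 CPM. Of 15 snoRNA host genes 4 were called higher and 4 lower, and 7 and 3 on log2(TPM + 1). GAS5 went from 137, 132 and 134 CPM to 250, 222 and 229 CPM and ZFAS1 rose by 0.88, whereas SNHG3 fell from 133, 124 and 124 CPM to 65.3, 65.9 and 70.4 CPM and SNHG4 by 1.27. Without stated strand-specific counting, reads of an antisense gene and its partner cannot be told apart.

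Among the largest rises outside these lists, SPNS3 went from 0.912, 1.58 and 1.53 CPM to 52.0, 47.0 and 45.4 CPM and the pseudogene ROCK1P1 from 3.64, 3.07 and 3.74 CPM to 107, 90.1 and 103 CPM, log2 fold changes of 5.19 and 4.83. BATF3, a bZIP factor of immune cells, went from 0.357, 0.469 and 0.605 CPM to 11.6, 11.4 and 10.1 CPM, a log2 fold change of 4.52 (SE 0.20), against -0.27 in TMD8. TUBB2B, a neuronal beta-tubulin, went from 0.368, 0.365 and 0.475 CPM to 10.2, 9.57 and 7.60 CPM, and MOCOS, which activates molybdenum enzymes, from 0.674, 0.646 and 0.565 CPM to 13.9, 12.04 and 12.8 CPM. Among the falls, CAMP, an antimicrobial peptide gene, went from 11.4, 12.1 and 10.5 CPM to 1.70, 2.21 and 1.91 CPM, a log2 fold change of -2.55. PRX, the periaxin gene, went from 91.2, 95.4 and 80.7 CPM to 20.1, 22.9 and 20.6 CPM, a log2 fold change of -2.07 (SE 0.08), and rose by 2.21 in TMD8. PNMAL1 went from 6.91, 6.04 and 6.87 CPM to 1.198, 1.71 and 1.72 CPM. Falls of similar fitted size in ANK3 and RPS6KA6 rested on DMSO replicate 2. ANK3 was at 23.2, 125 and 23.4 CPM and then at 10.7, 12.04 and 16.8 CPM, and its log2 fold change of -2.08 became -0.83 without that library. RPS6KA6 was at 3.49, 22.5 and 3.97 CPM and then at 1.80, 1.43 and 3.42 CPM, and -2.10 became -0.74. Both were still called lower by edgeR without it (adjusted p = 7.65e-05 for ANK3 and 0.0299 for RPS6KA6), but neither passed on log2(TPM + 1) with all libraries (limma adjusted p = 0.0745 and 0.0981).

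Few genes were called at the lower dose. Against 150 nM, 3930 genes (25.1%) were called higher and 3302 (21.1%) lower at 500 nM. With the same DMSO libraries as controls, 150 nM gave 117 genes (0.748%) higher and 22 (0.141%) lower. Of the 22 stress-response genes 10 were called higher at 150 nM, of the 17 amino acid synthesis genes 9, of the 13 transporters 5 and of the 20 cytosolic tRNA synthetases 6, at list medians of 0.33, 0.23, 0.20 and 0.11. Among NF-kB genes 1 of 18 was called higher at 150 nM, and among mitotic, JAK and STAT, immediate-early and metal genes 0. The histone list had 2 of 64 called lower at that dose, at a median of -0.18. Hypoxia and glycolysis genes had 6 of 25 called lower and 0 higher at 150 nM, at a median of -0.14. One of that list, PFKFB4, averaged 13.2 CPM with DMSO, 3.98 CPM at 150 nM and 4.96 CPM at 500 nM.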

How the data were processed

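RNA from 18 libraries was sequenced, and the values of 6 OCI-Ly1 libraries were compared. A further 3 OCI-Ly1 and 6 TMD8 libraries entered the main fits described here. The authors deposited estimated counts per gene, and also TPM values, which are scaled for transcript length and library total. Per the submitters' processing notes, kallisto 0.46.0, R 4.3.1, DESeq2 1.40.2 and the hg19 build were used, with no role given for each. The deposited estimated counts need not be whole and were rounded before testing.

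Genes were filtered with filterByExpr, which kept 15638 of 23686 genes, scaled by trimmed mean of M-values and tested with edgeR 4.0.16 (quasi-likelihood, R 4.3.3) in 1 fit over the 9 OCI-Ly1 libraries. The difference between lines was an interaction term in a fit over 12 libraries and 16433 genes. P-values were adjusted by Benjamini-Hochberg over all tested genes, with a threshold of 0.05. The fit was tested on simulated data with as many rises as falls, of the same sizes. That test cannot show how the scaling divides rises from falls in the real data. SE is that of the log2 fold change. Total estimated counts ran from 17579732 to 32651115 in the 6 libraries. Levels are CPM, which are not scaled for length, so genes are not ranked by level. With at most 3 counts in each DMSO library no fold is given.

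Alternatives were DESeq2 1.42.0, other size factors, library size alone, other filters, limma 3.58.1 on log2 of TPM with 1 or 0.1 added, centring on library medians, a replicate block and leaving out each library. Further ones were a fit of only the 6 compared libraries and, for the difference between lines, a fit over all 18. All 831 symbols named in the lists were found in the table, 27 of them through an older symbol. RefSeq annotation (GRCh38.p14) was matched by symbol for 15048 tested genes (96.2%), and no hg19 coordinates are given. Near-identical gene copies share reads that pseudoalignment may split.

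The comparison, the gene lists and the tests were chosen with earlier results of these data known. Genes were named by rule: the 8 largest rises and 8 largest falls among called genes with non-overlapping groups, at least 5 CPM in the higher group and more than 3 counts in every library, fixed anchors and the 2 largest called members of each list, the 3 largest differences from 150 nM and between lines in each direction, and the 5 highest genes that were at the 3-count limit with DMSO. The text names fewer than the rule allows, and some items are not reported here. Other list members, and ESRP1, DUX2, FGF23 and PDGFA, were chosen after their values were seen.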

Additional observations from a re-analysis of the deposited data

Results flagged for a closer look

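The change at 500 nM differed between OCI-Ly1 and TMD8 in 18 named genes by an interaction term in edgeR, each at an adjusted p under 0.05. The values are the log2 change in OCI-Ly1 minus that in TMD8. Line and medium changed together and cannot be told apart.

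NF-kB genes responded more in OCI-Ly1 for ICAM1 (4.01), NFKBIA (1.74), TNFAIP3 (1.499) and CD83 (0.97), and REL went the other way (-1.43). The B-cell regulator IRF4 differed by 1.62, and MYC by 1.53. Starting levels with DMSO also differed, with mean IRF4 at 230 CPM in OCI-Ly1 and 2869 CPM in TMD8, and their part in the difference was not tested.

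Some amino acid genes differed, by 3.11 for SLC43A1, 1.34 for CARS and 1.22 for MTHFD2. Others were not called different, with ASNS at 0.05, SLC6A9 at 0.03 and CTH at -0.25, and PHGDH was called at -0.31. Of the 17 amino acid synthesis genes, 10 were called higher in OCI-Ly1 than in TMD8 and 2 lower. TUBB2B and BATF3 differed by 4.97 and 4.78, from DMSO means of 0.403 and 0.477 CPM in OCI-Ly1 and of 44.96 and 13.6 CPM in TMD8. PLK1 differed by 1.498, as it fell in both lines and further in TMD8.

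Other negative differences among these named genes were found for PRX (-4.29), FOSB (-3.96), HSPA6 (-3.82), HSPA1B (-2.77) and RPL3 (-0.73). HSPA1A, not counted among them, had a larger one, -7.08 (SE 0.35, edgeR adjusted p = 1.2e-13). In TMD8 it averaged 2.43 CPM with DMSO and 202 CPM at 500 nM, and its reads may be shared with HSPA1B. HSPA6 reached a mean of 1.58 CPM in OCI-Ly1 and 221 CPM in TMD8 at 500 nM.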

How the results depend on the processing

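The direction of the division between rises and falls depended on scaling, while no alternative removed the response. Against DMSO, 2240 genes were called lower on log2(TPM + 1) and also on log2(TPM + 0.1), against 4057 with the main scaling. With library size alone 64.0% of the calls were higher. Against 150 nM, 1860 and 1854 genes were called lower on the TPM scales, and centring on library medians gave 2519 higher and 5403 lower. For the difference from TMD8 the TPM scales gave 8875 and 8598 genes higher with 1034 and 866 lower, and centring gave 5431 lower. The cause was not tested. DESeq2 called 4151 genes higher and 3917 lower against DMSO. Leaving out each library in turn gave 3764 to 4489 genes higher and 3546 to 4242 lower against DMSO, 3266 to 3918 and 2753 to 3439 against 150 nM, and 4312 to 4679 and 2505 to 2875 for the difference between lines. Without DMSO replicate 2, 7329 of the 8387 calls (87.4%) kept their direction and passed, and 0 reversed. Deviations of same-numbered DMSO and 500 nM libraries correlated at -0.067, -0.0030 and -0.033. Those of differently numbered libraries correlated at -0.032 to 0.071. From 3 libraries per group it cannot be told whether the numbers mark pairs. With the replicate block, 4463 genes were called higher and 4152 lower against DMSO, 4103 and 3437 against 150 nM, and 4569 and 2841 for the difference between lines. Depth limits genes below 1 CPM, of which 17.1% were called higher and 9.74% lower.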

Other observations

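Gene classes outside the lists differed in their shares of calls, given as descriptions with no test. Small nucleolar RNA genes were called lower in 38.3% of 230 cases and higher in 3.48%, with a median log2 fold change of -0.48. Long noncoding RNA genes were called lower in 29.3% of 767 cases and higher in 13.7%. Protein-coding genes were called lower in 25.7% of 13430 cases and higher in 29.8%. Among protein-coding genes, the fifth with the longest genomic span was called higher in 34.6% and lower in 20.6% of cases, and the fifth with the shortest span in 27.1% and 27.9%. On chromosome 9, chosen after its values were seen, 212 tested genes (39.9%) were called higher and 95 (17.9%) lower.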
